A study of Mus musculus with 2 samples.

Results

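CpG-rich promoters that carried no DNase I peak were described here in whole ovary from 2 female B6CASTF1/J mice aged 36 days, F1 animals from a cross of C57BL/6J with CAST. DNase-seq maps where DNase I can cut chromatin, and the 2 libraries, 1 per animal, are biological replicates 1 and 2 of a single group with no treatment and no other tissue to set them against. The genes were chosen by their lack of a peak. A protein-coding gene was taken when its highest CpG ratio, the number of CpG dinucleotides over the number that its C and G content would give, was 0.75 or more within 500 bp of any annotated start, and when neither library had a peak within 500 bp of any of its starts. The rule found 84 of 21938 protein-coding genes. The 84 were 1.13% of the 7425 CpG-rich coding genes, whereas 6544 of all coding genes (29.8%) lacked a promoter peak in both libraries. Of the other CpG-rich genes, 7276 carried a peak at a start in both libraries and 65 in 1 library. Without replicate 1 the rule would take 139 genes, and without replicate 2 it would take 94. Since the peaks chose the genes and there is 1 group of 2 animals, all values below are descriptions, and none was tested.

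Stretches of DNA that keep many CpG dinucleotides are called CpG islands. They mark the starts of most genes that every cell uses, and also the starts of many genes that act only in the embryo, in nerve cells or in germ cells. Islands are usually free of DNA methylation and open to DNase I across tissues. Those of silent developmental regulators are known to be bound by Polycomb proteins, and those of some germ cell genes are known to be methylated in body cells. Neither Polycomb nor methylation was measured here.

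Promoter sequences show what the rule picked up. The 250 bases before the RefSeq start are printed in the direction of transcription on GRCm38.p6, the same build as mm10, with each CpG in capitals. Among the genes without a peak, Nkx1-1, Meioc, Hoxa13 and Tcfl5 had the highest ratio in the homeodomain, meiosis, Hox and bHLH lists, and Hist1h2ap, which had it in the histone list, is named only. Ddx4, Olig2 and Eif2s3y were chosen after their values were seen, as a germ cell gene, a gene far from any peak and a gene of the Y chromosome. Foxj3 and Zcwpw1 are CpG-rich genes of the forkhead and meiosis lists with peaks at their starts in both animals.
Nkx1-1: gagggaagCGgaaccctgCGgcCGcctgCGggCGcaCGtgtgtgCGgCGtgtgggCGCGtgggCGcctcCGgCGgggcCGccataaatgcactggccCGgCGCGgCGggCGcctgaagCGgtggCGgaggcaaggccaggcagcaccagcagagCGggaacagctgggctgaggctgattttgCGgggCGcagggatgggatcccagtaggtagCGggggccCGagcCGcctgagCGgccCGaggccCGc
Meioc: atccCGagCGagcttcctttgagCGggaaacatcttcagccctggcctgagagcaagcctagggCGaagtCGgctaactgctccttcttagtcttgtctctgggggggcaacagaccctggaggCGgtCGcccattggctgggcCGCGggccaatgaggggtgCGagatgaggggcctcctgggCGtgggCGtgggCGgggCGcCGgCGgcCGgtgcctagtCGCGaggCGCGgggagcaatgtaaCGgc
Hoxa13: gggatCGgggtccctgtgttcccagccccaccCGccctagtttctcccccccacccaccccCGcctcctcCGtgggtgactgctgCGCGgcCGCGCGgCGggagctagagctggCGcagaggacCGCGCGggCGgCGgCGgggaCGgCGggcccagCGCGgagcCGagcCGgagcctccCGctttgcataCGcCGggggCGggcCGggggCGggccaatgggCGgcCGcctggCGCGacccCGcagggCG
Tcfl5: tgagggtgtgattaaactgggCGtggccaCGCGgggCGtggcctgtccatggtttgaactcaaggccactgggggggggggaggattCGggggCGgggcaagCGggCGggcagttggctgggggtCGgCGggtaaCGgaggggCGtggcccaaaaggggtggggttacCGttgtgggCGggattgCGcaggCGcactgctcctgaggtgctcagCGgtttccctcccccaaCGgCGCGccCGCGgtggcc
Ddx4: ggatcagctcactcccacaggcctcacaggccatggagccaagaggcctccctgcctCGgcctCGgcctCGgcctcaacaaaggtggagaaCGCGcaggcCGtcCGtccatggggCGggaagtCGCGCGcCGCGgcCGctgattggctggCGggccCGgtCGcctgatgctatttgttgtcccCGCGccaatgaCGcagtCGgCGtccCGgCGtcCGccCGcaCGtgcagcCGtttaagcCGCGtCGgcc
Olig2: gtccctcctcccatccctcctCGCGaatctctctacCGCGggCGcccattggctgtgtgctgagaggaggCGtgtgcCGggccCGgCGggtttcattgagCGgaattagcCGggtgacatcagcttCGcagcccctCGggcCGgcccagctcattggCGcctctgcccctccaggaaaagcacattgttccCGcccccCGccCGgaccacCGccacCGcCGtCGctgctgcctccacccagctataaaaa
Eif2s3y: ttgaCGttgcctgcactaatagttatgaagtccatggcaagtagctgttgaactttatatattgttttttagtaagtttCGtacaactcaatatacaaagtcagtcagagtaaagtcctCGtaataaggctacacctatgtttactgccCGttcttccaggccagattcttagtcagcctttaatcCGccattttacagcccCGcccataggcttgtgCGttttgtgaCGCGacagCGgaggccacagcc
Foxj3: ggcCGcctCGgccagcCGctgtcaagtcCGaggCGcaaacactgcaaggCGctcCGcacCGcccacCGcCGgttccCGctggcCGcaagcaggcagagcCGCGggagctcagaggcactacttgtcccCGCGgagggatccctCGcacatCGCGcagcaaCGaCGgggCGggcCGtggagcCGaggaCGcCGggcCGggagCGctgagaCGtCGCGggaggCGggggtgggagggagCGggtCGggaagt
Zcwpw1: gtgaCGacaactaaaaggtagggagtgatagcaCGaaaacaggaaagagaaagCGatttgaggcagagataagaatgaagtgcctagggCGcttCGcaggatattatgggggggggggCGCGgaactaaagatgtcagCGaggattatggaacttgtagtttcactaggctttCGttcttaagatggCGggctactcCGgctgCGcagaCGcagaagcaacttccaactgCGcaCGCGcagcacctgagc
The Nkx1-1 stretch lies at chr5:33434091-33434340 on the minus strand and holds 30 CpGs. That of Meioc lies at chr11:102665335-102665584 on the plus strand with 22 CpGs, and that of Hoxa13 at chr6:52260881-52261130 on the minus strand with 35. The Tcfl5 stretch is at chr2:180642692-180642941 on the minus strand with 22 CpGs, Ddx4 is at chr13:112652311-112652560 on the minus strand with 31, and Olig2 is at chr16:91225300-91225549 on the plus strand with 22. Eif2s3y, at chrY:1010345-1010594 on the plus strand, holds 10 CpGs at a GC content of 44.4%. Of the promoters with peaks, the Foxj3 stretch at chr4:119539411-119539660 on the plus strand holds 34 CpGs and the Zcwpw1 stretch at chr5:137787552-137787801 on the plus strand holds 16. The printed promoters without a peak thus run from 10 to 35 CpGs per 250 bases and overlap the 2 with peaks in this count.

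The lack of a peak fell steeply with CpG content. Of 1084 coding genes with a ratio under 0.1, 95.7% had no promoter peak, and of 2713 with a ratio from 0.1 to 0.2, 90.7% had none. The share without a peak was 49.5% from 0.3 to 0.4, 10.1% from 0.5 to 0.6 and 4.55% from 0.6 to 0.7. From 0.7 to 0.8 it was 1.89%, and it then stayed level at 0.92% from 0.8 to 0.9, 0.904% from 0.9 to 1 and 1.02% from 1 to 1.1. Because the rule used both measures, this is the setting in which the 84 genes stand and not a result about them.

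**Figure D1:**
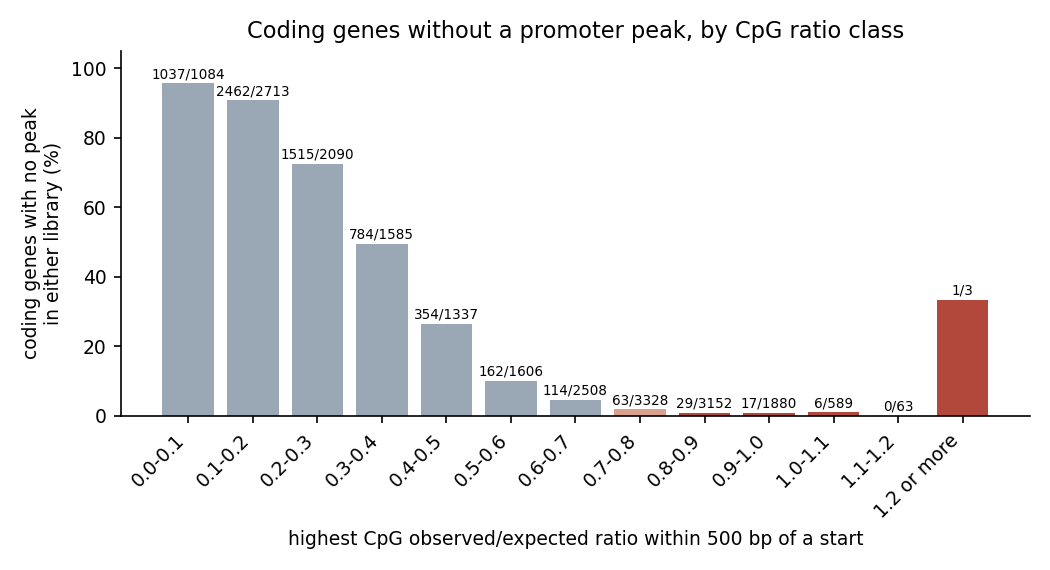
Share of protein-coding genes with no peak within 500 bp of any start in either ovary library (y axis, percent), in classes of the highest CpG observed/expected ratio at a start (x axis). Numbers above the bars are genes without a peak over genes in the class, dark red bars lie wholly above the threshold of 0.75 and the light red bar spans it. The share falls to 1.89% in the class from 0.7 to 0.8 and stays near 1% above it, where the last class holds only 3 genes.

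At the threshold, the 5 genes just inside were Hoxc11, Pcdha6, Slc25a31, Ddx4 and Tex11, with ratios from 0.752 to 0.753. The 5 just outside, also without a peak, were Slc25a37, Dmrta2, Drd5, Pcdhga8 and Sult4a1, with ratios from 0.743 to just under 0.75. Of genes left out for a peak near the edge of the window, Barhl2 had 1 at 486 bp in replicate 2, Igfbpl1 had 1 at 483 bp in both libraries, and Srp54c, Pappa and Cntfr had theirs at 452 to 473 bp. The nearest peaks just beyond the window were at 536 bp for Fgf4 and 550 bp for Lmx1b. Genes on the 2 sides of either limit are therefore alike in the measure that set it.

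The 84 genes were of unlike kinds. On the Y chromosome lay 5 of them, and 20 on other chromosomes had windows that are repeated in the genome, which leaves 59 genes with readable windows. By their known roles, and sorted by hand after the names were seen, the 59 comprised 4 Hox factors, 10 other homeodomain factors, 8 other developmental factors, 3 secreted signals, 9 germ cell genes, 14 genes of nerve and other excitable cells, 5 other named genes and 6 gene models without a name. No gene of the ribosomal protein and proteasome list (85 CpG-rich genes) or of the respiratory chain list (54) was among them. With 1.13% of all CpG-rich genes lacking a peak, none in lists of this size says little.

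Hox factors, which set position along the body axis, gave 4 of 18 CpG-rich Hox genes (22.2%, against 1.13% of all CpG-rich genes). They were Hoxa13, Hoxd11, Hoxc11 and Hoxc12, all from the posterior end of their clusters. A further 3 Hox genes, Hoxa9, Hoxb6 and Hoxb8, had a promoter peak in replicate 1 alone, with values of 0.703, 1.36 and 0.547. The value is the authors' signal per peak, on a scale that no source used here states. Of Hox genes with peaks in both libraries, Hoxa7 had 4.90 in replicate 1 and 3.23 in replicate 2, and Hoxa4 had 4.44 and 1.71. Hoxa13, a factor of distal limb and genital tract with a ratio of 0.948, had its nearest peak 3587 bp away in replicate 1 and 3562 bp away in replicate 2, with values of 2.10 and 1.45. Hoxd11, a limb and kidney factor, had its nearest peaks at 4078 and 4099 bp, with values of 2.21 and 1.44. Hoxc11 and Hoxc12 stand side by side and share their nearest peak common to both libraries, chr15:102963741-102964020, which lies 9314 bp from the Hoxc11 start and 26984 bp from that of Hoxc12. No peak of either library lay nearer than 3562 bp to a start of these 4 genes.

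Other homeodomain factors gave 10 of 72 CpG-rich genes (13.9%), with 7 more that had a peak in 1 library. Each of the 10 is known from an organ other than the ovary: Hmx3 from the inner ear, Barx1 from stomach and teeth, Nkx2-1 from thyroid and lung, Pou4f3 from hair cells, Irx4 from the heart ventricle, Cdx1 from gut, Lmx1b from limb and kidney, Uncx from the vertebral column and Esx1 from placenta, while Nkx1-1 is less well described. Nkx1-1 had the highest ratio, 0.917, and its nearest peak was 2366 bp away in replicate 1 with a value of 0.541 and 4325 bp away in replicate 2 with a value of 5.64. The peak common to both libraries nearest to Nkx1-1, at 4325 bp, had 11.7 in replicate 1 and 5.64 in replicate 2. These were above the medians of 9.25 and 4.62 over CpG-rich promoters with peaks. That peak was not among the distal peaks given to Nkx1-1 by the rule described below, of which the strongest had 4.61 and 2.76 at 62355 bp. The centre of the peak at 4325 bp therefore lies within 1000 bp of another annotated start, or nearer to another coding gene. Uncx had its nearest peaks at 6994 and 6974 bp, with 2.94 and 1.96, and Hmx3 had a peak of 0.508 at 607 bp in replicate 1 but none nearer than 2627 bp in replicate 2. Lmx1b came nearest to leaving the set. Its nearest peak, chr2:33641061-33641260, lay 550 bp from a GENCODE start with 1.52 in replicate 1, and 566 bp from it with 0.883 in replicate 2, and a RefSeq start of the gene lies inside it. Of the 84 genes, 52 have a RefSeq start, and Lmx1b was the only one of these with a peak within 500 bp of such a start. With the RefSeq starts added, 83 genes would be left.

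Other developmental factors included 3 of 26 CpG-rich forkhead genes, 3 of 19 bHLH genes (with Tcfl5, placed below among the germ cell genes), 1 of 7 T-box genes and 1 of 25 developmental zinc finger genes. Tbx1, a factor of the pharynx and the outflow tract of the heart, had a ratio of 1.03 and its nearest peaks at 1073 and 1118 bp, with values of 1.22 and 0.759. Those distances are from 1 of its 4 starts, but not from the start with that ratio. Olig2, a factor of oligodendrocytes and motor neurons, stood farthest from any peak, at 44104 bp in replicate 1 and 44084 bp in replicate 2. Between them were Foxl1, a factor of gut mesenchyme, at 2160 and 2140 bp, Skor1, a corepressor of nerve cells, at 2220 bp in both, and Bhlhe23 at 2681 bp in both. At Fezf2, a forebrain factor, the libraries differed, with a peak at 804 bp in replicate 1 and at 4140 bp in replicate 2. Foxe3, a lens factor, had peaks at 593 and 828 bp with values of 0.749 and 0.458. Of the same lists, Foxj3, Hey2 and Tbx3 had peaks at their promoters, with 11.98, 19.9 and 8.10 in replicate 1 and 6.27, 8.60 and 3.86 in replicate 2. All 13 CpG-rich Sox genes and all 9 Wnt ligands were open at a start in both libraries as well, as were 7276 of all 7425 CpG-rich genes.

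Among secreted signals, 2 of 10 CpG-rich fibroblast growth factors had no peak. Fgf3, a signal of the inner ear and tail, had its nearest peaks at 7724 and 7686 bp, with 0.547 and 0.576. Fgf4, a signal of the early embryo and limb bud, is its neighbour on chromosome 7, and the same peak, chr7:144846281-144846486, is the nearest common one for both genes. Fgf4 also had a peak of 0.347 at 536 bp in replicate 2.

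Germ cell genes stood farther from peaks than most of the others. The 9 genes had a median of 12777 bp to the nearest peak in either library, against 2778 bp over the 59 genes with readable windows. Of the meiosis and piRNA list, 5 of 18 CpG-rich genes (27.8%) had no peak, which was the largest share among the 33 lists. Ddx4, the germ cell RNA helicase also called Vasa, had its nearest peak at 8086 bp in both libraries, with 6.57 and 4.16. Meioc, which keeps germ cells in meiotic prophase, had peaks at 12096 and 12076 bp, and Slc25a31, the ADP/ATP carrier of germ cells, at 14115 and 14154 bp. Tex11, an X-linked gene of meiotic recombination, had peaks at 41479 and 66914 bp. Fkbp6, of the piRNA pathway, was the nearest, at 1637 and 1737 bp. The others were genes known from the testis: Tcfl5 at 14793 bp in both, Hsf5 at 12777 bp in both, Papolb, a poly(A) polymerase, at 20945 and 19945 bp, and Zfp541 at 4531 and 8774 bp. In the same list, Ccnb1ip1 had a promoter peak of 12.9 in replicate 1 and 9.94 in replicate 2, and Zcwpw1 had 11.5 and 6.17. Oocyte markers were open in 1 of 6 cases, Gdf9, with Ddx4, Zp3, Bmp15, Figla and Nobox without a peak. Ddx4 belongs to the 84, so the rule fixed its state. Zp3, Bmp15, Figla and Nobox have no peak and are not among the 84, so they are not CpG-rich by the rule. Lack of a peak was more common among such genes, and it held for 29.8% of all coding genes. Of the 43 genes in the oocyte list, 3 were CpG-rich, and all 3 were open in both libraries. The marker counts therefore do not show that oocyte promoters in general lack peaks. Open in both libraries were 10 of 10 granulosa, 5 of 6 theca, 4 of 4 stromal, 3 of 3 oviduct, 2 of 4 endothelial, 1 of 3 macrophage and 1 of 3 lymphocyte markers. In bulk tissue, few cells of a type and little open chromatin per cell cannot be told apart, and neither was tested.

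Nerve and other excitable cell genes, sorted by hand, made up 14 of the 59, against 22 developmental factors in 3 groups. Most lists of nerve cell genes held few or none of the 84. There were 0 of 13 CpG-rich synaptic vesicle genes, 0 of 8 glutamate receptor genes, 0 of 4 GABA and glycine receptor genes, 0 of 11 amine and acetylcholine receptor genes and 0 of 21 cadherin and synaptic adhesion genes. Transmitter transporter and synthesis genes gave 1 of 8 and protocadherins 1 of 8. The channel lists gave 2 of 33 CpG-rich potassium channel genes (6.06%) and 0 of 18 sodium and calcium channel genes. Absence of a peak was therefore not general among channels. With 1.13% of all CpG-rich genes lacking a peak, none in lists of this size says little. A peak in 1 library alone was seen at 2 potassium channel genes and 1 sodium or calcium channel gene. It was also seen at 1 GABA or glycine receptor gene and 1 amine or acetylcholine receptor gene. The transmitter transporter and synthesis list held 2 such genes, the cadherin and synaptic adhesion list 2 and the protocadherins 1. Kcnk9, a leak channel subunit, had its nearest peaks at 3161 and 3141 bp with 2.23 and 0.910. Rbfox3, the neuronal splicing factor known as NeuN, had a peak at 628 bp from 1 of its 9 starts in both libraries, with 3.04 and 1.80. Jph3, which ties the endoplasmic reticulum to the cell membrane, had the highest ratio of the group, 1.02. It had a peak at 1796 bp from 1 of its 4 starts in both libraries, but not from the start with that ratio. Slc18a3, the vesicular acetylcholine transporter, had a peak at 2851 bp in both libraries, and Cabp7, a calcium-binding protein, at 3603 bp in both. Elavl3, a neuronal RNA-binding protein, had peaks at 1230 and 690 bp, and Abcc8, the sulfonylurea receptor, at 1308 and 1688 bp. Hs3st4, a heparan sulfate enzyme, had the widest spread, with a peak of 0.209 at 852 bp in replicate 2 and none nearer than 148542 bp in replicate 1. Pcdha6, of the protocadherin clusters, was the farthest from any peak, at 122231 and 122211 bp. Gpr12, Igsf21, Csmd2 and Tmem132d had their nearest peaks between 2279 and 17397 bp. Of neuronal markers, Snap25 and Syp were open in both libraries, and Neurod6 and Rbfox3 had no peak. For Rbfox3, which belongs to the 84, the rule fixed this.

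The 5 other named genes lay close to peaks, with 1 exception. Rnf208 had peaks at 1175 and 1155 bp, Tcerg1l at 628 and 608 bp, and Rasal3, a Ras regulator of lymphocytes, at 877 and 855 bp. Slc5a5, the iodide transporter of the thyroid, had a peak at 904 bp in both libraries, with 2.61 and 1.41. Yy2, an X-linked relative of Yy1, had none nearer than 29196 bp in replicate 1 and 4905 bp in replicate 2. The 6 unnamed gene models were B430218F22Rik, 4933428G20Rik, Gm21738, Gm4881, Gm26566 and Gm9833, each with 1 annotated start. B430218F22Rik and Gm26566 had strong peaks just past the window, with 8.33 and 9.12 in replicate 1 and 5.28 and 4.42 in replicate 2, at 551 to 596 bp.

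**Figure D2:**
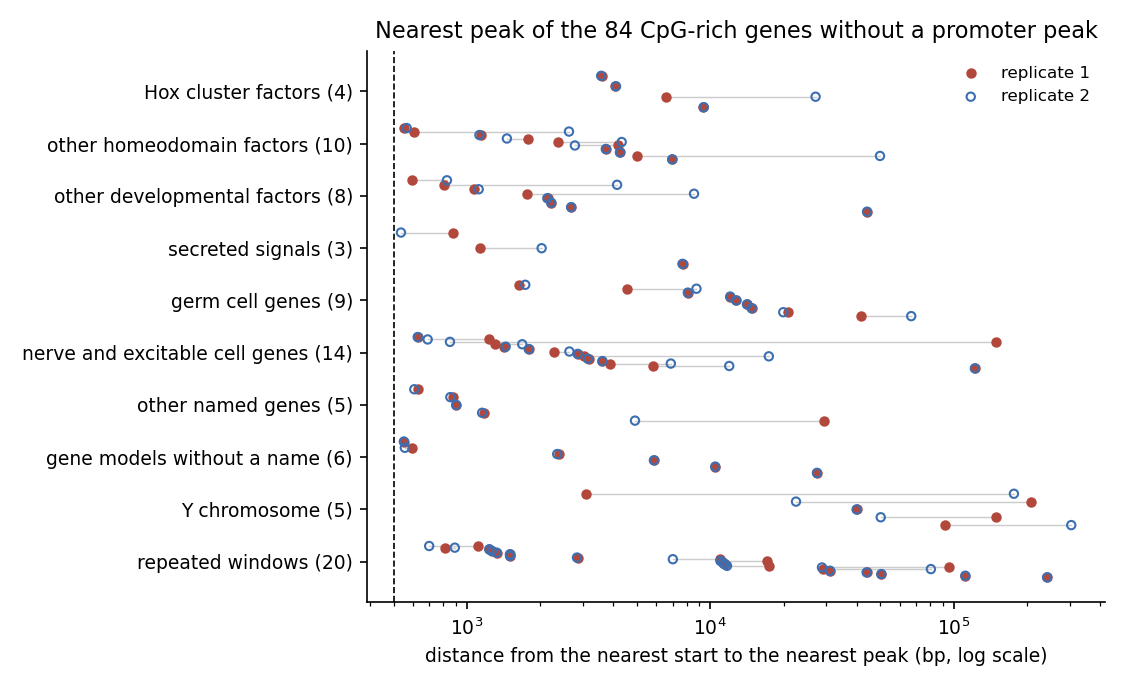
Distance from each gene's nearest start to the nearest peak (x axis, bp, log scale) for the 84 genes, in 10 groups (y axis, number of genes in brackets), with replicate 1 as filled and replicate 2 as open circles joined by a grey line. The dashed line is the 500 bp limit of the rule. Most pairs of circles lie on each other, and the germ cell, Y chromosome and repeated groups reach farther out than the developmental groups.

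All 5 CpG-rich genes of the Y chromosome lacked a peak, and the mice are female by their labels. They are Ddx3y, Eif2s3y, Kdm5d and Uty, which have partners on the X, and the gene model Gm47283. Within the first 3 Mb of the Y, where the 4 named genes lie, each library held 4 peaks with a highest value of 0.0977 in replicate 1 and 0.0982 in replicate 2. Gm47283, at the far end of the chromosome, had a peak at 39918 bp in both libraries with 13.3 and 7.81. None of the 32-base words in the Gm47283 window occurs once in the genome, so it also meets the measure of a repeated window used below. In this it differs from the 4 named genes. The 5 genes are left out of the 59.

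Repeated windows form a further class. For 20 genes outside the Y chromosome, less than 50% of the 32-base words in the window occur once in the genome, so most reads of that length there could be placed at more than 1 site. Outside the Y, 76 CpG-rich genes have such windows, and 20 of these have no peak, against 59 of 7344 with readable windows. The 20 hold 5 replication histone genes out of 59 CpG-rich ones. Hist1h2ao and Hist1h2bq share a start region, as do Hist1h2ap and Hist1h2br, so each pair has 1 nearest peak. That of the second pair lay 1267 bp from Hist1h2ap and 1503 bp from Hist1h2br in both libraries, with 0.697 and 0.844. Of other gene copies, Srp54b had its nearest peak at 50451 bp, Entpd4 at 95354 and 28762 bp, Entpd4b at 111652 and 111612 bp, and the X-linked Nudt10 at 29166 and 80595 bp. Gm11168 lies near the start of chromosome 9, and its nearest common peak had 0.762 in replicate 1 and 10.1 in replicate 2. Zxdb, Mterf1b, Fam177a, BC107364, Hist2h3c1 and 6 more unnamed models fill the class. The part of read placement in these 20 was not tested.

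Peaks are 1 call on the data, and the deposited false discovery rates per base are another. These q-values are listed only below 0.05, at 1.33% of the genome in replicate 1 and 1.48% in replicate 2. Of the 84 genes, 13 had a listed base within 500 bp of a start in replicate 1, 5 in replicate 2 and 3 in both, and 69 had none. All 7276 CpG-rich genes with peaks had such a base in both libraries. Peaks split these sets and come from the same libraries as the q-values, so the rule largely sets this gap. Among all 6544 coding genes without a promoter peak, 0.489% had a listed base in both libraries. The 3 genes were B430218F22Rik with 642 bases in replicate 1 and 654 in replicate 2, Gm26566 with 579 and 600, and Rbfox3 with 32 and 30. At the first pair, which have strong peaks just past the window, these bases formed 1 unbroken run per library, with lowest q-values of 2.7e-31 and 6.22e-37 at B430218F22Rik and 1.86e-34 and 1.49e-23 at Gm26566. At Rbfox3 the lowest q-values were 0.0307 and 0.0385, near the limit of the list.

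In replicate 1 alone, Foxe3 had 104 listed bases with a lowest q-value of 0.00104, Hoxd11 had 41, Kcnk9 had 23 and Lmx1b had 22. A handful of bases, between 1 and 8, were listed there at genes that include Rasal3, Hmx3, Nkx1-1, Elavl3 and Gm9833. In replicate 2 alone, Tcerg1l had 48 and Nudt10 had 34. None of the germ cell genes, the secreted signals or the Y-linked genes had a listed base in either library. Footprints, short protected stretches within open sites, were found at B430218F22Rik, with 0 in replicate 1 and 1 in replicate 2, and at Gm26566, with 2 and 1, and at no other of the 84 genes. Of the CpG-rich genes with peaks, 99.8% had a footprint in replicate 1 and 99.6% in replicate 2. Footprints lie within open sites, so the split by peaks largely sets this gap.

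**Figure D3:**
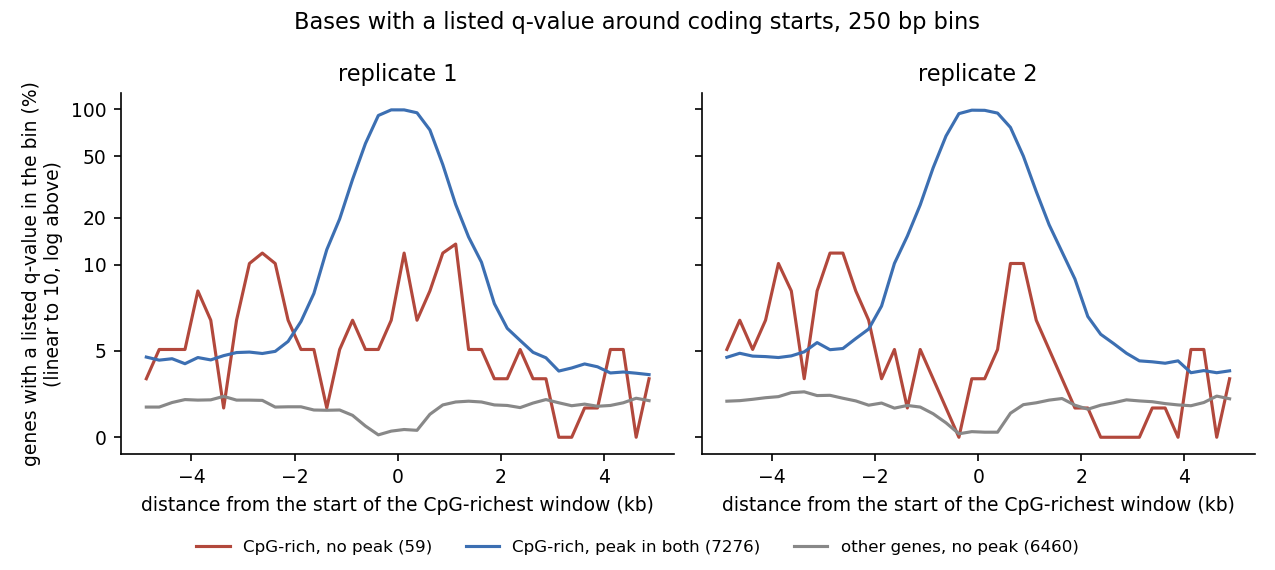
Percent of genes with a listed q-value (y axis, linear to 10 and log above) in 250 bp bins from 5 kb before to 5 kb after the start of the CpG-richest window (x axis, kb), for the 59 genes with readable windows, the 7276 CpG-rich genes with peaks in both libraries and 6460 other coding genes without a peak, in each replicate. The red line stays below 14% in all bins, while the blue line rises to nearly 100% at the start and the grey line dips at it.

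Between these sets lay the 65 CpG-rich genes with a peak in 1 library. They had a listed q-value at 89.2% in replicate 1 and 40% in replicate 2, and the 84 genes at 15.5% and 5.95%. In replicate 1 alone, 55 genes had a peak, with a median value of 0.573, against 9.25 over the CpG-rich genes with peaks in both libraries. In replicate 2 alone, 10 genes had one, with a median of 0.461, against 4.62. The lower quartiles of the open genes were 5.38 in replicate 1 and 2.81 in replicate 2, so the single-library peaks were weak in either scale. Their highest values were 1.79 in replicate 1 and 2.19 in replicate 2. Among them were homeodomain genes such as En1, Gbx1, Mnx1 and Lbx1, the channel genes Hcn2 and Cacna1i, and the factors Zic2, Foxa1 and Sim2, all named after their values were seen. CpG-rich promoters without a peak and those with a weak peak in 1 ovary thus overlap in some gene kinds but not in others. The list of homeodomain genes outside the Hox clusters held 10 of the 84 and 7 of the 65. The meiosis and piRNA, bHLH and histone lists held 5, 3 and 5 of the 84 and 0 of the 65.

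The surroundings of the 59 readable promoters were far from empty. A peak of either library lay within 1000 bp of a start in 13 of the 59, within 2000 bp in 23, within 5000 bp in 42 and within 10 kb in 49. Such peaks may lie at the starts of other genes. Of the 6460 other coding genes without a peak, 4.67% had a peak within 1000 bp and 41.4% within 10 kb, and their median distance was 14478 bp. Unlike the 59, these 6460 were not filtered: 1347 (20.9%) have repeated windows and 178 lie on the Y. Of all 84 genes, also unfiltered, 17.9% had a peak within 1000 bp and 70.2% within 10 kb. Over all 84 genes the median was 3352 bp, and it was 3663 bp in replicate 1 alone and 4197 bp in replicate 2 alone. In 250 bp bins up to 5 kb from the start, the share of the 59 with a listed q-value varied. It lay between 0% and 13.6% in replicate 1 and between 0% and 11.9% in replicate 2. Beyond 2 kb the order against CpG-rich genes with peaks depended on the side. Before the start the 59 were higher in most bins, as from -2750 to -2500 bp (11.9% against 4.85% in replicate 1 and 5.14% in replicate 2). From 2000 to 4000 bp after it they were lower in every bin, as from 3000 to 3250 bp (0% against 3.83% and 4.43%). A single gene is 1.69% of the 59. Since the rule empties the window itself, only places beyond 500 bp bear on this.

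Distal peaks describe the wider loci. A distal peak is one common to both libraries whose centre lies over 1000 bp from every annotated start, and each of 51530 was given to the coding gene with the nearest start. Of the 84 genes, 54 (64.3%) were the nearest gene of at least 1 distal peak, close to the 58.1% of all coding genes. Of the 59 readable ones it was 47 (79.7%), against 69.7% of the CpG-rich genes with peaks in both libraries and 35.1% of other genes without a peak. The 6460 other genes, unlike the 59, were not filtered for the Y or for repeated windows. Per 100 kb of sequence nearest to each set, the 59 held 1.87 distal peaks and all 84 held 1.56. This was against 2.39 distal peaks at CpG-rich genes with promoter peaks and 0.971 at other genes without one. All 10 homeodomain factors outside the Hox clusters and all 8 other developmental factors had at least 1. The median stretch of sequence nearest to a gene was longer in both groups than at CpG-rich genes with promoter peaks. Per 100 kb the 2 groups held 1.93 and 1.998 distal peaks, below the 2.39 at those genes. Their loci were thus not denser in distal peaks. None of the 5 Y-linked genes and 7 of the 20 repeated ones had any distal peak.

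Rbfox3 led with 24 distal peaks, the strongest of them 15101 bp from a start with 3.20 in replicate 1 and 2.21 in replicate 2. Skor1 followed with 13, of which the strongest, 37579 bp away, had 10.8 and 5.46. Foxl1 had 11, with the strongest 2369 bp away at 2.78 and 1.58, Kcnk9 had 8 and Barx1, Lmx1b and Tcerg1l had 7 each. At Kcnk9 the strongest, 22391 bp away, had 2.59 and 2.40, and at Barx1 the strongest, 9017 bp away, had 2.07 and 1.66. Distance alone made these links, and Foxl1 stands in a row of forkhead genes, so the nearest gene need not be the one that a distal site serves.

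In base composition the genes without a peak resembled open CpG-rich genes at the start. The 59 had a median of 85 CpGs in the 1001 bp window and a GC content of 64.5%, against 86 CpGs and 63.7% in the 7276 genes with peaks. Within 2 kb of the start on both sides, the 59 had a median of 172 CpGs (quartiles 142 and 217), against 142 (quartiles 117 and 176). The CpG ratio over the same 4 kb hardly differed, with a median of 0.567 in the 59 and 0.558 in the genes with peaks. The 65 genes with a peak in 1 library had 179 CpGs and a ratio of 0.567. The groups differed among themselves: the median CpG counts over 4 kb were 213 for homeodomain factors outside the Hox clusters, 209 for Hox factors, 201 for other developmental factors, 193 for nerve and excitable cell genes and 189 for secreted signals, whereas germ cell genes had 103 and unnamed models 139. As a ratio, the Hox factors had 0.660, the other homeodomain factors 0.641 and the other developmental factors 0.602, above the 0.558 of genes with peaks. Nerve and excitable cell genes, at 0.565, and secreted signals, at 0.545, stood near that value, and germ cell genes were at 0.485. The quartiles overlap between most groups, and neighbouring genes of 1 cluster share sequence context.

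**Figure D4:**
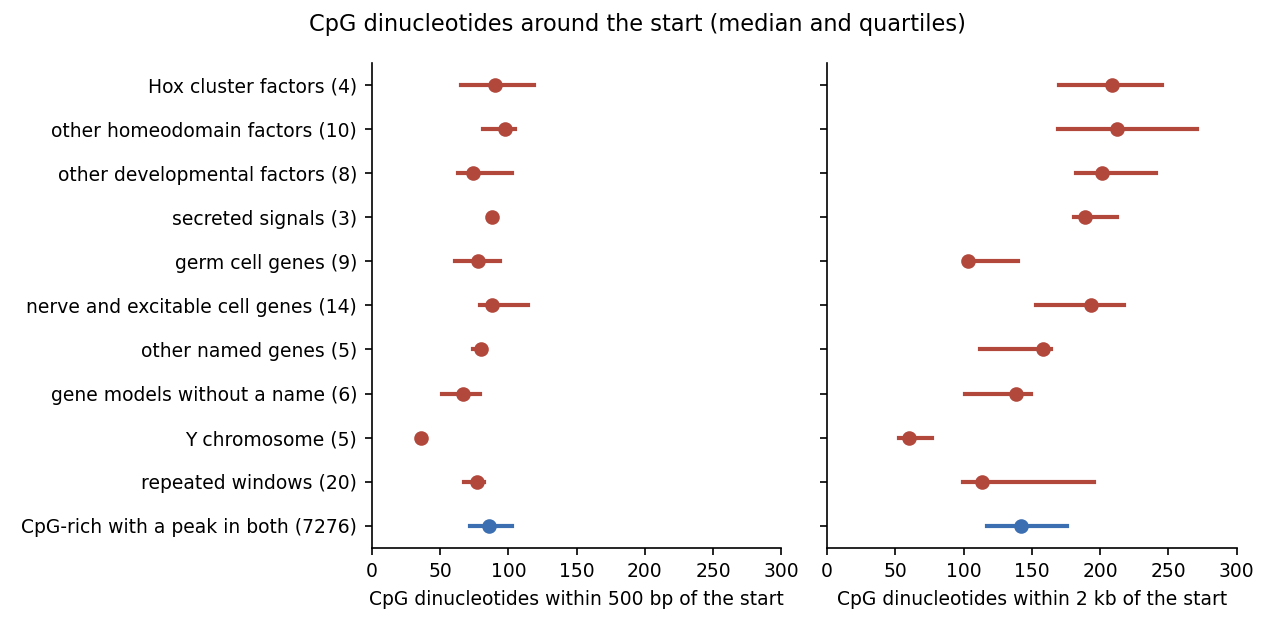
Number of CpG dinucleotides in the 1001 bp window (left, x axis) and within 2 kb to either side of the start (right, x axis) for the 10 groups of genes without a peak (red) and for the 7276 CpG-rich genes with a peak in both libraries (blue, bottom). Points are medians and bars run between quartiles. Medians in the left panel lie between 66.5 and 97.5 outside the Y chromosome, while in the right panel the developmental, signal and nerve groups lie at 189 or above and the germ cell group at 103.

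Annotation differed as well. The 84 genes had a median of 2 annotated starts, against 5 for CpG-rich genes with peaks, and 36 of 84 (42.9%) had a single start, against 9.08%. A gene with more starts has more windows in which a peak may fall, so the rule favours genes with few starts, and 47.7% of the genes with a peak in 1 library also had 1 start.

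Short motifs of general promoter factors were counted in the CpG-richest window on both strands, with no motif holding another whole. The Sp1 motif GGGCGG was in 86.4% of the 59 windows, against 94.7% of CpG-rich windows with peaks. The ETS motif CCGGAAG was in 10.2%, against 31.3%, and the NRF1 motif CGCATGCG was in 1.69%, 1 window, against 6.47%. For the E2F motif TTCCCGC the shares were 20.3% and 28.7%. In the other direction, the E-box CACGTG was in 30.5% of the 59 against 22.1%, and TATAAA was in 22.03% against 16.8%. CCAAT was in 62.7% against 59.3%. The long motif of REST, a repressor of neuronal genes, was matched at 1 of the 59, Lmx1b (1.69%), against 1.196%. In other coding genes without a peak, which are poor in CpG, Sp1 was in 16.4%, ETS in 5.56% and TATAAA in 54.3%. A match is a run of letters and not a bound site.

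**Figure D5:**
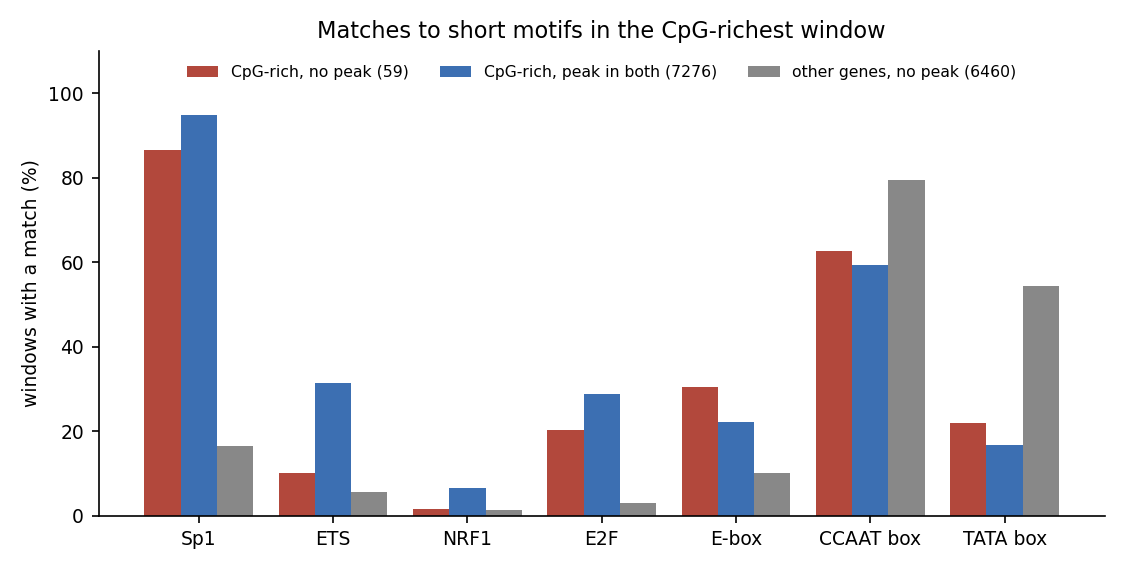
Percent of 1001 bp windows with at least 1 match to each motif (y axis), for 7 motifs (x axis), in the 59 CpG-rich genes without a peak (red), the 7276 with a peak in both libraries (blue) and 6460 other coding genes without a peak (grey). The red bar is lower than the blue one for Sp1, ETS, NRF1 and E2F and higher for the E-box, CCAAT box and TATA box.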

How the data were processed

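Open chromatin of whole ovary was measured by DNase-seq in 2 libraries, biological replicates 1 and 2, 1 animal each. The authors deposited peaks with a signal value, q-values for runs of bases and footprints whose score is 0.01 in every line, so footprints were used by position only. Per the file headers and descriptions, coordinates are on mm10 and each library was called from its own filtered alignments. The aligner, callers, thresholds and read depth were not given in the sources used here. The longer deposited peak lists (109169 peaks in replicate 1 and 114462 in replicate 2) were used.

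From these files, distances were computed from every transcript start of each protein-coding gene in GENCODE M21 on chromosomes 1 to 19, X and Y, to the nearest peak base. CpG ratios came from the GRCm38 genome over 1001 bp. A gene's distance is from its nearest start, which need not be the start with its highest ratio. The word count took both strands, with 32-base words. Common peaks were one-to-one pairs overlapping by at least 1 base (79440). Promoter sequences are RefSeq's, where its table holds the gene. The scripts used Python 3.11.15, numpy 2.4.6 and pandas 2.3.3, and were tested on simulated intervals with planted answers.

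The genes and the 33 gene lists were chosen with earlier results of these data known, and the 10 groups by role were made after the names were seen. Of the lists, 16 held at least 1 of the 84 genes and 17, with 319 CpG-rich genes together, held none. One of these 17, written for X-linked multicopy genes, also took the autosomal Slx4ip and Ssx2ip and was not used. Genes named by rule were up to 3 per list with the highest ratio, 2 per list with a peak, and 5 each for the highest ratio, the lowest ratio, the most distal peaks, the most listed bases and the nearest peak, leaving out unnamed models. Any others were named after their values were seen, and 3 genes that belong to the 84 are counted but not reported by name here. Alternatives were the shorter peak list, either library alone, other windows, ratios and start sets, and are given in the closing section.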

Additional observations from a re-analysis of the deposited data

How the results depend on the processing

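The number of genes moved most with the CpG ratio required, then with what counts as a peak, and least with how starts or the expected CpG were counted. With the shorter peak list there were 144 genes (1.94% of CpG-rich genes), of which 33 had a listed q-value in both libraries and 86 had a distal peak, and all 84 were kept. Leaving out either replicate gave 94 to 139 genes, shares of 1.27% to 1.87%, 16 to 21 genes with a listed q-value in the remaining library and 64 to 106 with a distal peak of that library. These single-library counts are not held to agreement between animals. A window of 250 bp gave a share of 1.55% and 17 genes with listed q-values, and one of 1000 bp gave 69 genes and 0 with listed q-values. A ratio of 0.65 or more gave 158 genes (1.52%), 91 of them with a distal peak, and 0.85 or more gave 39 genes and 25 with a distal peak. Among windows with at least 50% of words once the share was 0.857%, with 63 genes. To the nearest peak common to both libraries the median distance was 4289 bp. Starts of coding transcripts alone gave 89 genes, 83 of them shared, the other formula for expected CpG gave 78, and leaving out the Y gave 79. Adding RefSeq starts, an alternative chosen after the data were seen, gave 83. Q-values of 0.01 or less left 2 of 3 genes, and a distal limit of 2000 bp with at most 100 kb left 48 of 54. The share's 95% interval for counting error (Clopper-Pearson) is 0.903% to 1.40%. With 2 animals in 1 group and no read counts, depth and the spread over animals cannot be given. No paired analysis was possible because there is 1 group.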
